A study of Mus musculus with 10 samples.

Results

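The genes described here are the 80 mouse genes for the protein components of the cytosolic ribosome, chosen by symbol as Rpl or Rps with a number and at most 1 further letter, plus Rplp0, Rplp1, Rplp2 and Rpsa. They are 80 of the 35542 genes in the count table, 49 of the large subunit (Rpl) and 31 of the small subunit (Rps), and the rule uses the symbol alone. Expression was measured by RNA-seq in the frontonasal prominence (FNP), facial tissue from which the forehead and nose arise, taken from FVB/NJ embryos at E10.5. The study compared 6 embryos with wild-type Smchd1 (WT: males 1, 2 and 3 and females 4, 5 and 6) with 4 embryos homozygous for MommeD1 (MD1: labelled female 1, male 2, male 3 and female 4), a mutation carried in every cell that the study treats as a null allele of this chromatin silencing protein. The labels do not say whether samples were pooled, so p-values measure only the spread between these samples.

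The ribosome translates mRNA into protein, and each cell of a growing embryo needs large numbers of them. A ribosome holds 1 copy of nearly every ribosomal protein, apart from the acidic stalk proteins Rplp1 and Rplp2. Their mRNAs are among the classical TOP mRNAs, which begin with a C followed by a run of pyrimidines, a sequence through which mTOR signalling and the protein Larp1 set how much of the mRNA is translated. Loss of function of several of these genes is known to cause blood, skeletal and craniofacial defects, and unassembled Rpl5 and Rpl11 bind Mdm2 and so stabilise p53.

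Libraries held between 4195119 counts (MD1 male 3) and 24125084 counts (WT male 3). Levels are given as CPM, counts scaled by the TMM library size, for 1 gene across libraries, and comparisons between genes use the deposited log2 RPKM, which corrects for transcript length. Smchd1 itself was at 246 ± 14.0 CPM over the 6 WT and 78.6 ± 20.8 CPM over the 4 MD1 libraries (SD), and its log2 fold change was -1.65 ± 0.15 (SE, edgeR quasi-likelihood test, adjusted p = 0.000746). Of 10 frontonasal markers, all 10 were detected in the fit, with summed levels of 1480 to 2089 CPM in WT. Of the MD1 libraries, the one labelled MD1 female 1 went against its label. There 4 Y-linked genes summed to 290 CPM, against 255 and 319 CPM in the MD1 males and 0 in the other female libraries. Xist was at 204 CPM there, between the male libraries (0.596 to 2.08 CPM) and the WT females (2594 to 2695 CPM). In MD1 female 4 Xist was at 6724 CPM. MD1 female 4 stood apart on the first principal component of all genes, at -91.7 where the other 9 libraries lay between -7.68 and 37.8. MD1 male 3, the library with the fewest counts, stood apart on the second, at -70.2 where the other 9 lay between -22.3 and 23.8. The erythroid markers of MD1 female 4 summed to 20277 CPM and its hypoxia response genes to 13055 CPM. No other library passed 4313 CPM for the first sum or 3066 CPM for the second. MD1 female 4 also had the lowest sum of frontonasal markers, 1033 CPM. The part of these 3 differences in the values of the ribosomal protein genes was not tested. In bulk tissue, fewer cells of a type and less RNA per cell cannot be told apart.

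The first transcribed bases show the TOP start where the annotation places it. RefSeq start sites (GRCm38.p6) matched 60 of the 80 genes. A start on C followed by at least 4 more pyrimidines was present in 13 of the 60 (21.7%), against 3.01% of all 27025 genes with a start, and in 5 of 11 other TOP mRNAs with a start. The windows below give the 15 bases before the start in lower case and the 15 bases from the start, with the pyrimidine run that opens the transcript in capitals. They are shown for Rpl15, which has the longest run among starts on C (13 bases), and for the named genes described later that have such a start. Rpl9, Rpl10 and Rps4x follow for contrast. They were among the genes that differed most between libraries and do not begin with a pyrimidine at these sites. Of the genes with a TOP start at the site shown, Rpl35a, Rpl38 and Rps27 were also above the WT range in MD1 female 4, and the others were not. The median log2 difference of this library from the WT mean was 0.20 for the 13 genes with a TOP start. It was 0.41 for the 44 tested genes whose matched sites lacked one. The other annotated sites of Rpl35a lack such a start. A link between the start and the differences between libraries was not tested.
Rpl15 (chr14:18270972-18271001, minus strand): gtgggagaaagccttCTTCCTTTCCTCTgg
Rpl35 (chr2:39005117-39005146, minus strand): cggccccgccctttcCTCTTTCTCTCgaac
Rpl35a (chr16:33056467-33056496, plus strand): gcggggcttgccttcCTCTTTCCgccatct
Rpl38 (chr11:114668565-114668594, plus strand): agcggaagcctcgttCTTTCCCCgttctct
Rplp2 (chr7:141447636-141447665, plus strand): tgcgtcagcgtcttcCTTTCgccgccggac
Rps6 (chr4:86857353-86857382, minus strand): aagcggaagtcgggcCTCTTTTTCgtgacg
Rps27 (chr3:90213634-90213663, minus strand): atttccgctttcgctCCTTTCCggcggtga
Rpl9 (chr5:65391417-65391446, minus strand): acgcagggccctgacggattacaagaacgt
Rpl10 (chrX:74270801-74270830, plus strand): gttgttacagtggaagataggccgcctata
Rps4x (chrX:102189377-102189406, minus strand): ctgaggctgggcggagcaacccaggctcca

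In the 300 bases around the start (250 before and 50 after), searched on both strands, CCGGAAG, the core bound by ETS family factors, was present in 25 of the 60 genes (41.7%) and in 9.93% of all genes. AAGATGG, part of the YY1 motif, was present in 9 of the 60 and in 7.28% of all genes, and TATAAA in 6 of the 60 and in 15.7% of all genes. CCGGAAG and AAGATGG can share the letters AAG, and such overlaps were not removed. The 13 genes with a TOP start had a median log2 RPKM of 3.28 in WT (1.51 to 8.0), and the 44 tested genes whose sites lacked one had 4.70 (2.05 to 9.04). These are descriptions of annotated sites, with no test. They depend on the exact annotated base. Rpl27a, Rpl7a and Rps24 open on runs of 16, 7 and 6 pyrimidines at an annotated site, but begin with T and so do not count. The levels also carry the uncertainty from shared sequence described below.

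The 80 genes lie on 18 autosomes and the X, with 14 of them on chromosome 7, and 77 passed the filter on low counts. In WT the mean log2 RPKM of these 77 had a median of 4.58 and quartiles of 3.13 and 6.12, against a median of 2.41 over all genes tested, and 22 of the 77 lay above the 95th percentile of all genes (5.50). The range was wide for proteins made in nearly equal numbers: the highest and lowest mean RPKM differed 327-fold. Rpl8, at the centre of the large subunit, was highest, with a log2 RPKM of 9.19 ± 0.12 (SD, n = 6). The stalk protein gene Rplp1 followed at 9.05 ± 0.16, Rpl4, which reaches into the exit tunnel, at 9.04 ± 0.13, and Rps15 at 8.85 ± 0.10, and each neighbour in this order was within the sum of the SDs of the next. Rpl17 was lowest, with a log2 RPKM of 0.83 ± 0.14, below Rpl23a at 1.45 ± 0.23, Rps27 at 1.51 ± 0.30 and Rps6, the target of the S6 kinases, at 1.84 ± 0.26. The gap between Rpl17 and Rpl23a exceeded the sum of their SDs, while Rpl23a, Rps27 and Rps6 overlapped. Small subunit genes had a median log2 RPKM of 4.96 (n = 31) and large subunit genes of 4.27 (n = 46), with quartiles that overlapped (3.21 to 6.51 and 3.04 to 5.46).

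Many of these levels are uncertain, because ribosomal protein genes have numerous processed copies in the mouse genome. Of the 80 genes, 54 had at least 1 annotated pseudogene at 90% identity over at least 50% of the principal mRNA, with a median of 5 over the 80 genes and a maximum of 81 for Rpl7a. The share of 75-base words of the mRNA that also occur in transcripts of other genes had a median of 42.0% and ran from 0% to 98.5%, the last for Rps27. The 17 tested genes with under 25% shared words had a median log2 RPKM of 6.57, none below 3.69. The 30 genes with over 50% had a median of 3.5, and all 4 of the lowest genes were among them. Spearman's rho between the 2 measures over the 77 genes was -0.52, a description across genes of the same libraries. No source used here says how reads with several positions were counted, so the order of levels above holds for these counts and not for the transcripts. The exons of 21 of the genes also overlap those of another gene, such as Rpl35 with Wdr38 on the opposite strand, and whether counting used the strand is likewise unstated. Within their introns or exons, 29 of the 80 genes hold 56 annotated snoRNAs.

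**Figure D1:**
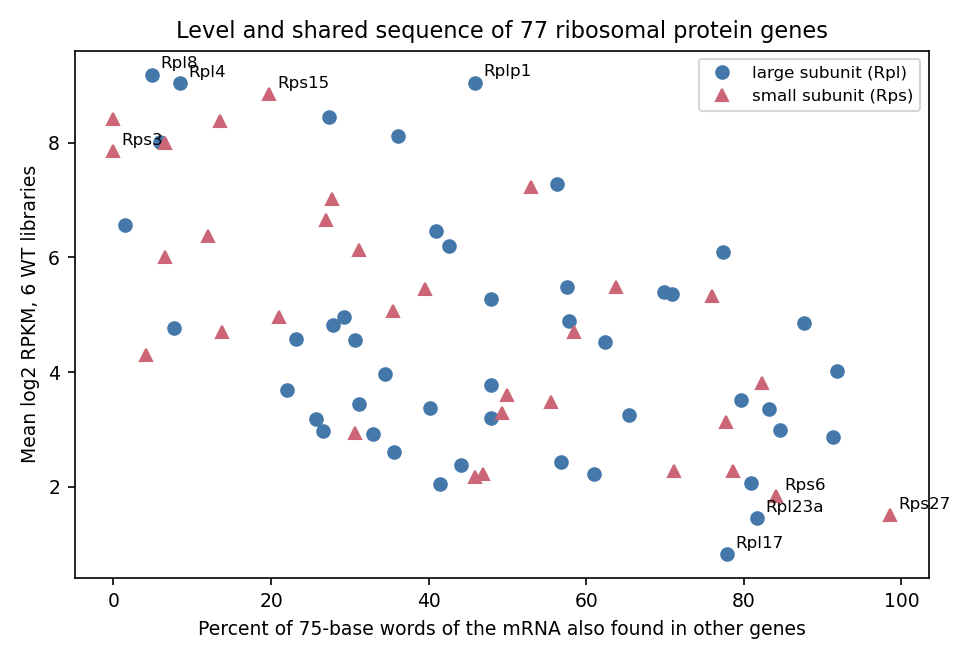
Mean log2 RPKM over the 6 WT libraries (vertical axis) against the percent of 75-base words of the principal mRNA that also occur in other genes (horizontal axis), 1 point for each of the 77 tested genes, circles for the large and triangles for the small subunit. Rpl8, Rpl4 and Rps15 lie at the upper left, and Rpl17, Rpl23a, Rps27 and Rps6 at the lower right.

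Of the 80 genes, 3 did not pass the filter, and all 3 are tissue-restricted paralogs. Rpl10l, an autosomal copy of Rpl10 known from the testis, had 0 counts in all 10 libraries, which allows up to 3 counts in each. Rpl39l, the testis copy of Rpl39, had 2 counts in all, and Rpl3l, the muscle copy of Rpl3, had 13 counts, at most 4 in a library. The broadly expressed Rps27l was at 75.2 ± 8.88 CPM over WT and 75.5 ± 5.72 CPM over MD1 libraries (SD, n = 6 and 4). It had a log2 RPKM of 6.37 ± 0.16 in WT, above its partner Rps27, of whose mRNA 98.5% of words are shared.

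Within WT the genes varied slightly more, by their median, than all tested genes in the same range of CPM. The coefficient of variation of CPM over the 6 WT libraries had a median of 10.6% and ran from 4.75% to 22.1%, next to a median of 9.32% over the 13388 tested genes in the same range of CPM. Over the 4 MD1 libraries the median was 19.0%, next to 18.9% for the same set of all genes, and without MD1 female 4 it was 9.91%. WT female 4 was below the WT mean for all but 7 of the 77 genes and was the lowest of the 10 libraries for 24 of them, while WT female 5 was above it for 69 of them.

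The first comparison asked whether loss of Smchd1 changed the expression of these genes. None of the 73 autosomal genes tested differed between MD1 and WT at an adjusted p under 0.05 (edgeR quasi-likelihood test, 0 higher and 0 lower), where 0.0777% of 15452 autosomal genes did. At an unadjusted p under 0.05 there were 2 of the 73, against 9.79% of all autosomal genes, and DESeq2 also called 0, with 1 at an unadjusted p under 0.05. The log2 fold change had a median of 0.10 with quartiles of 0.01 and 0.19, next to a median of 0.0029 and quartiles of -0.14 and 0.16 over all autosomal genes. It was above 0 for 57 of the 73 genes (78.1%), against 50.5% of all genes, and for 48 of the 73 with total count scaling. The median SE was 0.13, and 59 of the 73 estimates were within 0.25 of 0. Large and small subunit genes had medians of 0.10 each (34 of 43 and 23 of 30 above 0). Without MD1 female 4 the median was -0.01, with 28 of the 73 above 0, so the shift of the group rested on that library. Without the library labelled MD1 female 1 the median was 0.16, with 60 above 0 and 0 called.

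**Figure D2:**
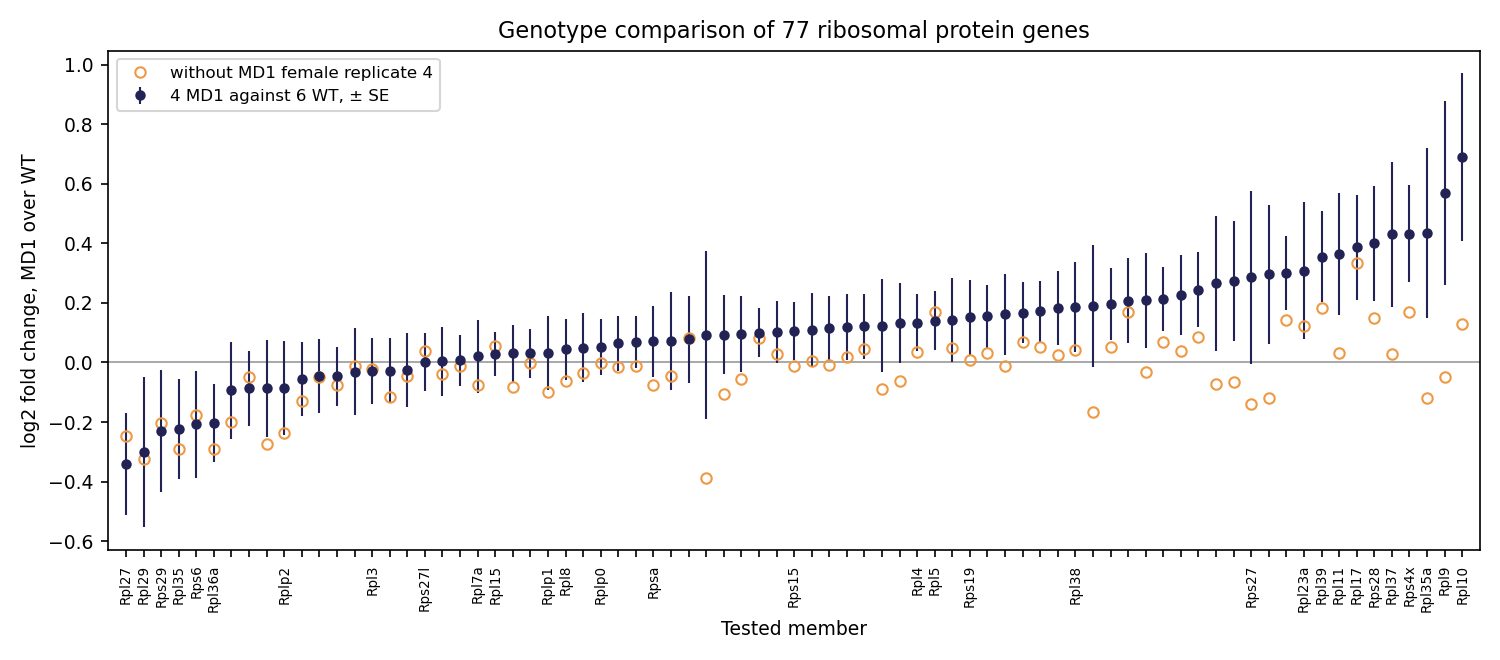
The log2 fold change of MD1 over WT (vertical axis) for each of the 77 tested genes in order (horizontal axis, with the genes named in the text labelled), filled points with bars of 1 SE for all 10 libraries and open points without MD1 female 4. Most filled points lie above 0, from -0.34 for Rpl27 to 0.69 for Rpl10, and the open points lie around 0.

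As a share of all counts, the 80 genes together took 1.12%, 1.22% and 1.10% in WT males 1, 2 and 3 and 1.02%, 1.21% and 1.09% in WT females 4, 5 and 6. They took 1.08% in the library labelled MD1 female 1, 1.10% and 1.16% in MD1 males 2 and 3, and 1.40% in MD1 female 4. The last lay above all 9 other libraries and the others overlapped. Its 95% Wilson interval was 1.39% to 1.41%, which covers counting error only. The means were 1.13% ± 0.0779 in WT (SD, n = 6) and 1.19% ± 0.147 in MD1 (SD, n = 4), a difference of 0.0607 percentage points that was smaller than either SD. Without MD1 female 4 the MD1 mean was 1.12% ± 0.0410 (SD, n = 3).

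**Figure D3:**
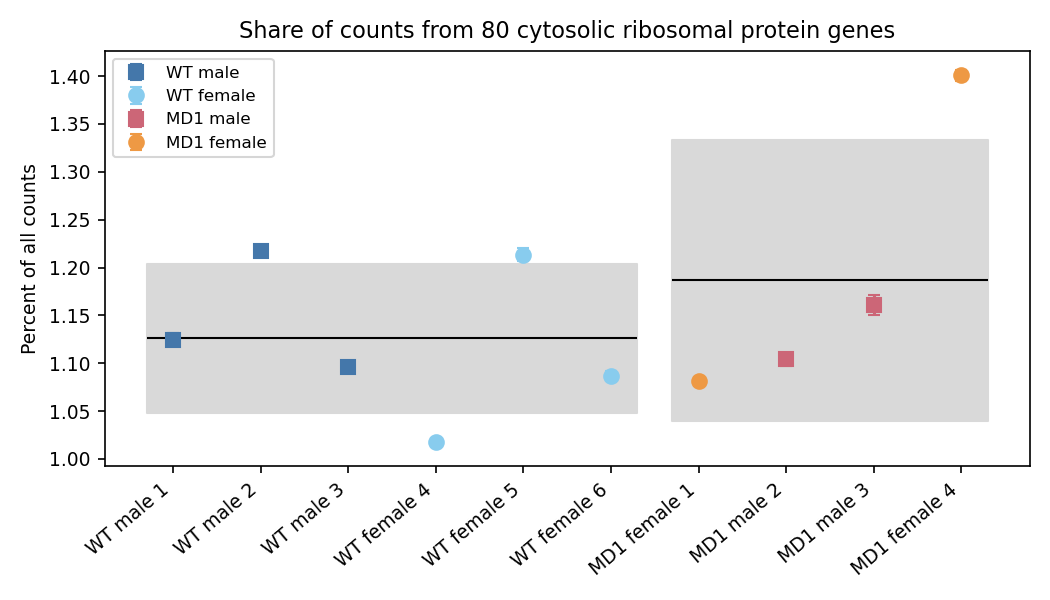
Percent of all counts that fell on the 80 ribosomal protein genes (vertical axis, which does not start at 0) in each library (horizontal axis), squares for males and circles for females by label, with 95% Wilson intervals mostly smaller than the points. Lines and grey bands give the mean and SD of WT and MD1, and MD1 female 4 sits at 1.40%, above the other 9 libraries.

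The 4 autosomal genes with the highest log2 fold changes were each highest in MD1 female 4, and their estimates were closer to 0 without it. Rpl9, a large subunit protein near the stalk base, was at 22.3 to 29.1 CPM in WT (median 23.9). In MD1 it was at 26.9 CPM in the library labelled female 1, 17.6 and 27.8 CPM in males 2 and 3, and 74.1 CPM in female 4. Only the last was outside the WT range on the high side, male 2 was below it, and the log2 fold change of 0.57 ± 0.31 (SE, edgeR adjusted p = 0.529) was -0.05 without MD1 female 4. Rpl35a, one of the genes mutated in Diamond-Blackfan anaemia, was at 17.1 to 24.6 CPM in WT (median 19.6) and at 20.1, 18.1, 17.6 and 53.6 CPM in MD1 libraries 1 to 4. Again a single MD1 library left the WT range, and the log2 fold change of 0.43 ± 0.28 (SE, adjusted p = 0.581, edgeR) was -0.12 without it. Rpl37 was at 14.3 to 20.7 CPM in WT (median 16.6) and at 17.5, 13.0, 22.7 and 38.4 CPM in MD1 libraries 1 to 4, with a log2 fold change of 0.43 ± 0.24 (SE, edgeR adjusted p = 0.54), or 0.03 without MD1 female 4. Rps28 was at 7.17 to 10.1 CPM in WT and at 9.03, 8.68, 11.4 and 16.4 CPM in MD1, with a log2 fold change of 0.40 ± 0.19 (SE, edgeR adjusted p = 0.511), or 0.15 without MD1 female 4. For these 2 genes MD1 male 3 and MD1 female 4 were above the WT range.

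At the lower end, Rpl27 was at 32.7 to 46.0 CPM in WT (median 38.4) and at 27.8, 29.3, 45.7 and 23.7 CPM in MD1 libraries 1 to 4. All but MD1 male 3 were below the WT range, and the log2 fold change was -0.34 ± 0.17 (SE, edgeR adjusted p = 0.518). Rpl27 was the one gene of the 77 that was lowest in MD1 female 4, whereas 29.8% of all genes tested were. Rpl29 had a log2 fold change of -0.30 ± 0.25, Rps29 of -0.23 ± 0.20 and Rpl35 of -0.22 ± 0.17 (SE, edgeR adjusted p between 0.627 and 0.671), with overlapping groups in each case.

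The only gene of the 77 with all 4 MD1 libraries on one side of all 6 WT libraries was Rpl17. It was at 2.26 to 2.93 CPM in WT (median 2.62) and at 3.23, 3.49, 3.14 and 3.80 CPM in MD1 libraries 1 to 4. All MD1 libraries were higher and the log2 fold change was 0.39 ± 0.18 (SE, edgeR adjusted p = 0.506), or 0.33 without MD1 female 4. Of all genes tested, 0.976% had every MD1 library above every WT library and 1.03% had every one below, so 1 of 77 is a share near that background. Of the words of the Rpl17 mRNA, 77.9% occur in other genes, and it is the lowest of the tested genes per length.

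MD1 female 4 was the highest of the 10 libraries for 52 of the 77 genes (67.5%), whereas it was the highest for 31.7% of all genes tested. Against the WT mean, the log2 difference of CPM in this library had a median of 0.40 over the 77 genes and of -0.0035 over all genes. It was above 0.5 for 29 of the 77 genes (37.7%) and for 22.2% of all genes. It was above 1 for 8 of them (10.4%), a share near the 9.31% of all genes. The genes did not move as a block: the log2 difference ran from -0.72 for Rpl27 to 1.66 for Rpl10, with 11 of the 77 below 0. In the mean of the other 3 MD1 libraries it had a median of -0.02 and ran from -0.41 to 0.32. The median difference in MD1 female 4 was 0.40 for genes with under 25% of words found in other genes. It was 0.43 between 25% and 50% and 0.35 above 50%. Spearman's rho between the difference and this share was 0.08. Among the genes with the largest differences, Rpl10 and Rpl9 had 91.9% and 91.3% of words shared and Rpl35a 44.1%. The part of shared sequence in these differences was not tested. The differences in MD1 female 4 rest on 1 library, so no test of the genotype applies to them.

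**Figure D4:**
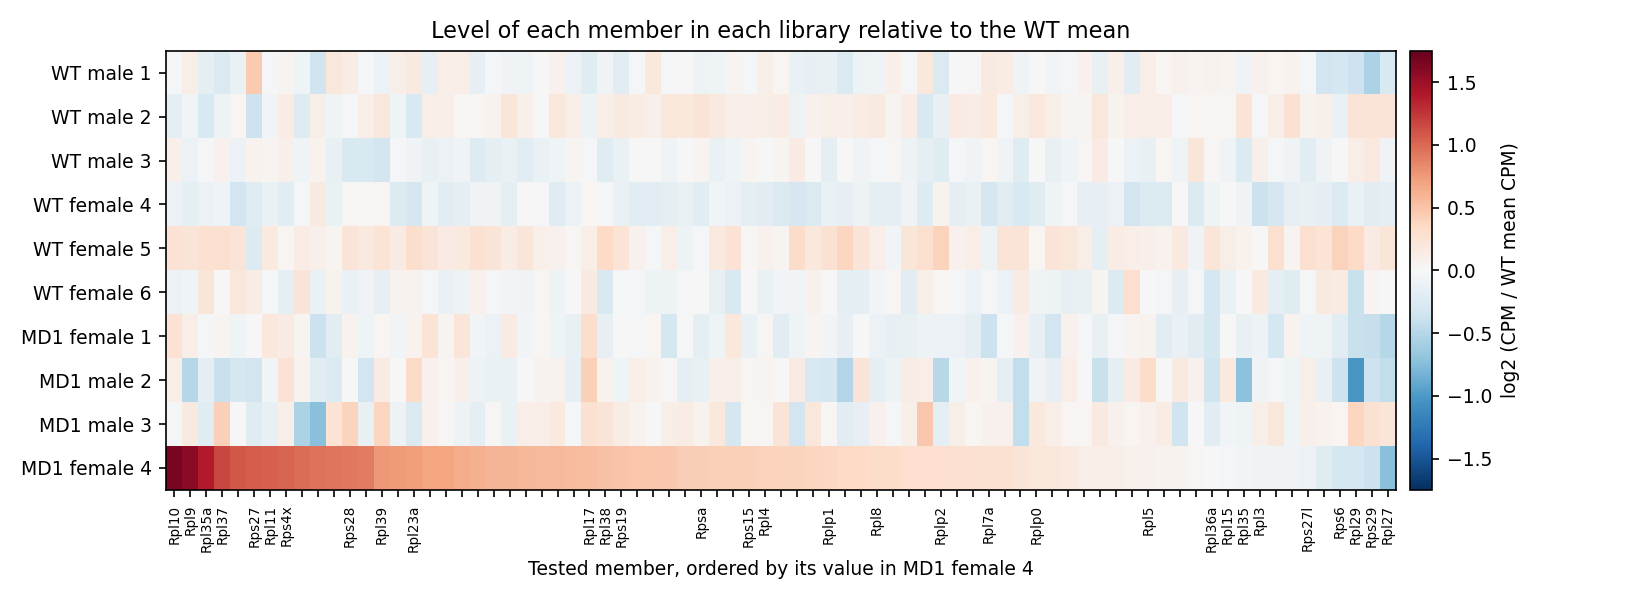
The log2 ratio of CPM to the WT mean (colour, from blue for lower to red for higher) for each of the 77 tested genes (horizontal axis, ordered by MD1 female 4, with the genes named in the text labelled) in each of the 10 libraries (vertical axis). MD1 female 4 is red for 66 of the genes, strongest for Rpl10, Rpl9 and Rpl35a, and blue for Rpl27.

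Smchd1 is needed for silencing of the inactive X in females, and 4 of the ribosomal protein genes are X-linked. In the fit of all chromosomes none of the 4 passed an adjusted p of 0.05 between MD1 and WT, where 0.0688% of all 15982 genes did, and 3 of the 4 had an unadjusted p under 0.05, against 9.85% of all genes. Rpl10, a late-joining large subunit protein, was at 36.6, 33.3 and 39.4 CPM in WT males and 34.4, 44.2 and 34.7 CPM in WT females. In MD1 it was at 39.8 and 36.2 CPM in the males, 44.2 CPM in the library labelled female 1 and 117 CPM in female 4. Female 4 was at 3.15-fold the WT mean and the other 3 MD1 libraries overlapped WT, and the log2 fold change of 0.69 ± 0.28 (SE, edgeR adjusted p = 0.496) was 0.13 without it. Rps4x, an abundant small subunit protein gene with a log2 RPKM of 7.23 ± 0.14 in WT, was at 282, 298 and 291 CPM in WT males and 240, 281 and 245 CPM in WT females. In MD1 it was at 324 and 293 CPM in the males, 302 CPM in the library labelled female 1 and 553 CPM in female 4, which was 2.03-fold the WT mean. All but MD1 male 3 were above the WT range, the library labelled female 1 by the least. Its log2 fold change was 0.43 ± 0.16 (SE, edgeR adjusted p = 0.492), or 0.17 without MD1 female 4.

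The other X-linked genes differed less. Rpl39 was at 34.7 to 51.6 CPM in WT and at 48.4 and 56.5 CPM in MD1 males, 44.6 CPM in the library labelled MD1 female 1 and 73.7 CPM in MD1 female 4, with a log2 fold change of 0.36 ± 0.15 (SE, edgeR adjusted p = 0.5), or 0.18 without MD1 female 4. Rpl36a was at 11.8 to 17.0 CPM in WT and at 11.8, 11.5, 12.8 and 14.8 CPM in MD1 libraries 1 to 4, with a log2 fold change of -0.20 ± 0.13 (SE, edgeR adjusted p = 0.572). In MD1 female 4, Rpl36a was 1.01-fold the WT mean, so the 4 X-linked genes of this library ran from no difference to about 3-fold. Autosomal Rpl9 and Rpl35a, at 2.97-fold and 2.61-fold the WT mean in the same library, lay above Rps4x.

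**Figure D5:**
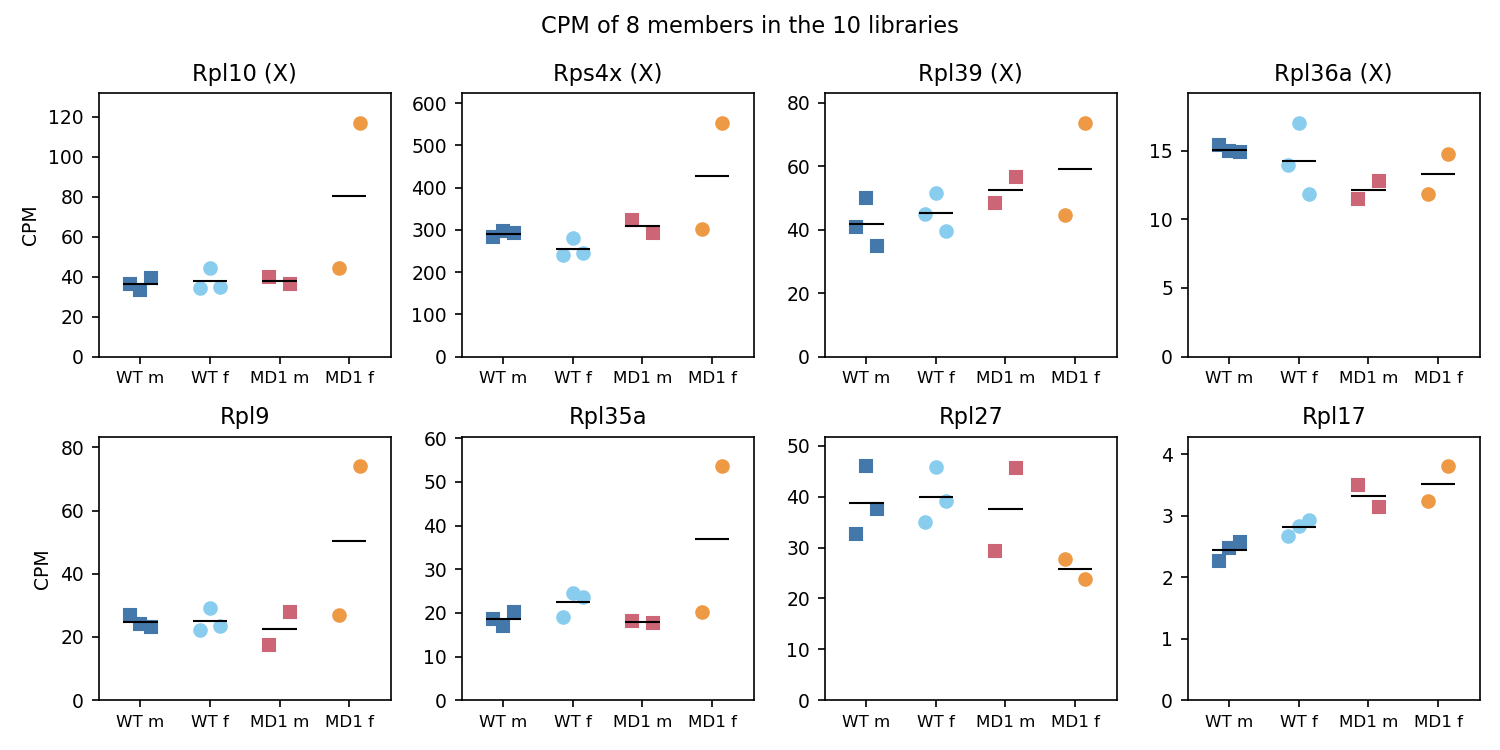
CPM (vertical axes, from 0) of the 4 X-linked genes (top row) and of Rpl9, Rpl35a, Rpl27 and Rpl17 (bottom row) in each library, grouped by genotype and labelled sex (m, male; f, female), with squares for males, circles for females and lines for group means. The upper orange circle of Rpl10, Rps4x, Rpl39, Rpl9 and Rpl35a is MD1 female 4, and for Rpl17 all MD1 points lie above all WT points.

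The design also allows the genotype comparison within each labelled sex, with 1 mean per genotype and sex and all 10 libraries in the fit. In males none of the 77 genes passed an adjusted p of 0.05, where 0.018% of 16640 genes did, and 0 of the 77 had an unadjusted p under 0.05, against 3.95% of all. The median log2 fold change was -0.02. In females none passed either, where 0.012% of all genes did, while 12 of the 77 had an unadjusted p under 0.05, 11 of them higher in MD1, against 19% of all genes in either direction. The median log2 fold change was 0.18, led by Rpl10 at 1.09 ± 0.30 (SE, edgeR adjusted p = 0.152), Rpl9 at 1.00 ± 0.34 (SE, edgeR adjusted p = 0.187) and Rps4x at 0.74 ± 0.19 (SE, edgeR adjusted p = 0.141). Without MD1 female 4 the median was -0.06. That fit leaves 1 MD1 library, the one labelled female 1 that carries Y-linked reads, against the WT females. It compares this library and not the genotype. DESeq2 called Rpl10 and Rps4x in females, 2.60% of the 77 where it called 3.59% of all genes.

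Since the library labelled MD1 female 1 carries Y-linked reads, the female comparison was repeated without it, which leaves MD1 female 4 alone against 3 WT females and assumes that it varies like the other groups. Then 37 of the 77 genes passed an adjusted p of 0.05, 36 of them higher. This is 48.1% of the genes where 32.1% of 17404 genes passed in either direction and 16.9% were higher. It compares 1 library, which stands apart for other genes too, and not the genotype. The difference of the genotype effect between the sexes itself passed for none of the 77 genes and for 0% of all genes. Without the library labelled MD1 female 1 the difference passed for 26 of the 77 and for 21% of all genes.

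Between WT females and WT males, none of the 77 genes differed at an adjusted p of 0.05, where 0.00601% of all genes did. At an unadjusted p under 0.05 there was 1, Rplp2 (log2 difference of 0.37, higher in females, adjusted p = 1 by edgeR), against 1.33% of all genes. The X-linked genes had log2 differences of 0.05 for Rpl10, -0.19 for Rps4x, 0.11 for Rpl39 and -0.08 for Rpl36a, with SEs between 0.17 and 0.28.

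Among genes named for their roles, none passed an adjusted p of 0.05 between genotypes. Rpsa, which also acts as a laminin receptor, was at 135 to 179 CPM in WT and at 139, 140, 161 and 207 CPM in MD1 libraries 1 to 4, with a log2 fold change of 0.07 ± 0.12 (SE, edgeR adjusted p = 0.827), or -0.07 without MD1 female 4. The stalk genes had log2 fold changes of 0.05 ± 0.09 for Rplp0, 0.03 ± 0.12 for Rplp1 and -0.09 ± 0.16 for Rplp2 (SE, edgeR adjusted p between 0.842 and 0.936), and of -0.00080, -0.10 and -0.24 without MD1 female 4. Rplp0 at a log2 RPKM of 8.44 ± 0.14 and Rplp1 were several log2 units above Rplp2, at 4.58 ± 0.23.

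Of the pair that binds Mdm2, Rpl11 stood above WT in MD1 female 4 and Rpl5 did not. Rpl5 was at 34.0 to 43.4 CPM in WT and at 41.9, 49.9, 42.3 and 42.0 CPM in MD1 libraries 1 to 4, with a log2 fold change of 0.14 ± 0.10 (SE, edgeR adjusted p = 0.601). Rpl11 was at 12.9 to 15.8 CPM in WT and at 15.9, 13.6, 12.8 and 29.0 CPM in MD1, with a log2 fold change of 0.36 ± 0.20 (SE, edgeR adjusted p = 0.54), or 0.03 without MD1 female 4. Only MD1 male 2 was above the WT range by more than 1 CPM for Rpl5, and only MD1 female 4 for Rpl11. Rps19, mutated most often in Diamond-Blackfan anaemia, had a log2 fold change of 0.15 ± 0.13 (SE, edgeR adjusted p = 0.65), or 0.0093 without MD1 female 4, and overlapping groups but for MD1 female 4, at 89.8 CPM above the WT maximum of 75.3 CPM. Rpl38, known for its part in translation of Hox mRNAs and axial patterning, was at 19.6 to 30.1 CPM in WT and at 21.3, 24.6, 27.5 and 33.6 CPM in MD1, with a log2 fold change of 0.19 ± 0.15 (SE, edgeR adjusted p = 0.647), or 0.04 without MD1 female 4. Rps6 was at 5.16 to 8.42 CPM in WT and at 5.61, 4.99, 6.52 and 5.17 CPM in MD1, with a log2 fold change of -0.21 ± 0.18 (SE, edgeR adjusted p = 0.663).

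Related genes outside the symbol rule were set beside them. Rps3a1, a small subunit protein gene whose symbol the rule does not take, was at 189 ± 15.4 CPM over WT and 220 ± 32.5 CPM over MD1 libraries (SD, n = 6 and 4), with a log2 fold change of 0.22 ± 0.10 (SE, edgeR adjusted p = 0.503). Fau, which encodes a small subunit protein fused to a ubiquitin-like protein, had a log2 fold change of 0.12 ± 0.20 (SE, edgeR adjusted p = 0.828). The paralogs Rpl22l1, Rpl36al and Rpl7l1 had log2 fold changes of 0.45 ± 0.16, -0.03 ± 0.10 and -0.14 ± 0.11 (SE, edgeR adjusted p of 0.496 and above). Without MD1 female 4 the log2 fold changes were 0.11 for Rps3a1, -0.20 for Fau, 0.22 for Rpl22l1, 0.01 for Rpl36al and -0.02 for Rpl7l1.

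The same fit was read for other lists of the translation machinery, and none of their genes passed an adjusted p of 0.05. Of 18 other TOP mRNAs, 16 had a log2 fold change above 0, with a median of 0.11 (0.02 without MD1 female 4). They ran from -0.04 for Eef1d, an elongation factor subunit, to 0.40 for Hnrnpa1, an RNA-binding protein (0.08 without MD1 female 4), and 14 of the 18 were highest in MD1 female 4. Of 78 mitochondrial ribosomal protein genes, 61 had a log2 fold change below 0, with a median of -0.09 (-0.06 without MD1 female 4), and 12 were highest and 38 lowest in MD1 female 4. Of 23 genes of ribosome assembly, 12 were above and 11 below 0, with a median of 0.01, from -0.30 for Bop1, which matures the large subunit rRNA, to 0.17 for the nucleolar GTPase Gnl3. Without MD1 female 4 the median was -0.02, Bop1 was at -0.08 and Gnl3 at 0.07. All genes tested had a median of 0.0052, and 31.7% were highest in MD1 female 4.

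Of 12 regulators of translation and ribosomal protein mRNA, 7 were above and 5 below 0 with a median of 0.02. Their log2 fold changes ran from -0.29 ± 0.08 for the kinase gene Mtor (SE, edgeR adjusted p = 0.492) to 0.64 for Eif4ebp1, a repressor of cap-dependent translation. Without MD1 female 4 the median of the list was -0.07, Mtor was at -0.23 and Eif4ebp1 was at -0.18. Of 11 p53 genes, 6 were above and 5 below 0 with a median of 0.04, from -0.36 for Aen, a nuclease, to 0.66 for the receptor gene Eda2r (-0.16 and 0.26 without MD1 female 4). All 12 hypoxia response genes were above 0 and all 12 were highest in MD1 female 4, with a median log2 fold change of 1.69 that was 0.31 without it, and 0 of the 12 passed.

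Markers of other cell types that the dissected tissue could hold also differed between libraries. All 9 erythroid markers were highest in MD1 female 4, where their median log2 difference from WT was 2.52. Of 4 endothelial markers 3 were highest there, with a sum of 526 CPM against 255 to 339 CPM in the other libraries, as were 3 of 5 neuroepithelial markers, with a sum of 506 CPM against 233 to 363 CPM. Yolk sac and liver markers, of which 4 of 7 were tested, summed to 370 CPM in the library labelled MD1 female 1 and 99.0 CPM in MD1 female 4, against 3.09 to 35.1 CPM elsewhere. Macrophage markers, of which 3 of 4 were tested, summed to 19.7 to 28.2 CPM over all libraries. Of the 10 frontonasal markers 7 were lowest in MD1 female 4. The part of these cell types in the levels of the ribosomal protein genes was not tested.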

How the data were processed

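RNA was extracted from dissected FNP tissue and sequenced as TruSeq RNA libraries. Per the labels and the study's methods, the tools were Trim Galore 0.4.4 for trimming, HISAT2 2.0.5 for alignment to GRCm38.p6 and SeqMonk for quantitation per gene, and the authors deposited raw counts and log2 RPKM, normalised for library size and transcript length. How reads with several positions, or the strand, entered the counts is unstated in these sources. Columns of the authors' means per genotype were not used, and 49 rows with a repeated identifier were dropped.

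The members and lists described here were chosen with earlier results of these data known. Counts were fitted in edgeR 4.0.16 (R 4.3.3) by the quasi-likelihood test after filterByExpr and TMM scaling, with Benjamini-Hochberg adjustment over all genes fitted and a threshold of 0.05. The genotype fit held autosomal genes, as in the study, and X-linked genes were read from a fit of all chromosomes (15982 genes). Sexes were compared in a fit with 1 mean per genotype and labelled sex (16640 genes). The script was tested on simulated data. Depth ran from 4195119 to 24125084 counts per library. No 2 libraries agreed within sampling noise: the lowest chi-square per degree of freedom over 45 pairs was 4.15. Named genes were those past the threshold (up to 10), the 4 highest and 4 lowest by fold change and by WT log2 RPKM, the X-linked members, and genes fixed by role or as paralogs (32 in all); results for some genes are not reported here. Annotation was GENCODE M21, whose coordinates matched the deposited ones for all 80 genes, and start site sequences came from RefSeq. Rps4l, listed as the partner of Rps4x, was not analysed here. Alternatives were RLE and total count scaling, no low-count filter, DESeq2 1.42.0, limma 3.58.1 on log2 RPKM, sex as a covariate, the replicate number as a block, all chromosomes, and each library left out, and, chosen after seeing the data, both MD1 libraries labelled female left out.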

Additional observations from a re-analysis of the deposited data

Results flagged for a closer look

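For 29 named genes tested, the share of counts and the group's median level, the farthest library of WT (6) and of MD1 (4) was compared with the range of its group by Dixon's test. Of 62 tests 7 stood out, all in MD1. Chance alone gives about 1 in 20 for genes picked without regard to their values. Some of the named genes were picked by their fold change in these libraries, Rpl35a, Rps29 and Rpl35 among them. That rate is therefore no measure for this set. In 4 of the 7 the library was MD1 female 4. It was at 53.6 CPM for Rpl35a (the other MD1 libraries at 17.6 to 20.1 CPM), at 1545 CPM for Rpl4 (1182 to 1210 CPM), at 117 CPM for Rpl10 (36.2 to 44.2 CPM) and at 553 CPM for Rps4x (293 to 324 CPM). MD1 male 2 was at 5.09 CPM for Rpl35 (7.66 to 8.14 CPM) and at 49.9 CPM for Rpl5 (41.9 to 42.3 CPM), and MD1 male 3, the shallowest library, was at 7.25 CPM for Rps29 (4.52 to 4.69 CPM). The test of the difference of the genotype effect between the labelled sexes called none of the 77 genes.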

How the results depend on the processing

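No autosomal and no X-linked member passed the threshold between MD1 and WT under any alternative run, with the lowest adjusted p of the autosomal members between 0.256 and 0.925. Over all autosomal genes the count past the threshold was 12, and 8 with total count scaling, 51 with DESeq2, 4 with limma on log2 RPKM, 0 with the replicate block and between 4 and 13 with a library left out. The median log2 fold change of the members was 0.10, between 0.02 (limma on log2 RPKM, with 39 of 73 above 0 and a median of -0.10 over all genes) and 0.11 under the other fits, and between -0.014 (without MD1 female 4) and 0.16 with a library left out. The difference in the share of counts was 0.0607 percentage points, 0.0977 on the TMM scale and -0.0107 without MD1 female 4. In females, where edgeR called 0 members, DESeq2 called 2 (2.60%, against 3.59% of all genes) and edgeR without a low-count filter 3 (3.80%, against 3.09%), and leaving out a library gave 0 to 37. For the difference between sexes leaving out a library gave 0 to 26. The highest value of both came without the library labelled MD1 female 1, which leaves MD1 female 4 alone in its group. The comparisons in males and between WT sexes called 0 members under every alternative run. Of 547 values of named genes under alternatives, 511 kept the sign and the side of the threshold, 30 changed sign within 1 SE of 0, and 6 changed sign from beyond it. These were Rpl9 at -0.050, Rpl35a at -0.12 and Rps15 at -0.011 without MD1 female 4 (with other libraries left out up to 0.80, 0.59 and 0.17), and Rpl9 at -0.17, Rpl35a at -0.19 and Rpl11 at -0.077 without both MD1 libraries labelled female. The cause was not tested. With the replicate number as a block the median was 0.11 and no member was called. Same-numbered WT and MD1 libraries correlated at 0.01, 0.0023, 0.08 and -0.04 in their deviations from the group means. These values gave no sign of pairing by number, but so few pairs cannot exclude it. Genes under about 10 CPM, such as Rpl17, rest on few counts in MD1 male 3, the shallowest library, and with 4 MD1 libraries differences near the median SE of 0.13 were not detectable.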
